A study of Mus musculus with 29 samples.

Results

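Cdkn1a, Ccng1, Btg2, Psrc1, Plk2, Plk3, Zmat3, Trp53cor1 and Pvt1 are transcriptional targets of p53 that act in cell cycle arrest or on RNA. They were taken by gene symbol from the count files, 9 of the 52929 genes with an Ensembl identifier in the series, and followed through 29 mouse RNA-seq libraries in 8 groups. The study asked how intestinal gene expression changes when RNase H2 is lost from the intestinal epithelium, alone or with p53. The labels name the alleles H2B and p53. H2B was read as Rnaseh2b, a subunit gene of RNase H2, and p53 as Trp53, and dIEC marks deletion in intestinal epithelial cells. The driver of the deletion is not named in the labels.

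Crypt libraries came from isolated small intestinal crypts of C57BL/6 mice aged 52 weeks, 4 of genotype H2BdIEC and 4 of genotype H2B flox/flox, the controls. Tissue libraries came from H2B/p53dIEC mice, with 4 tumors and 4 samples of adjacent tissue from the same 4 animals, and from 4 H2B/p53flox/flox mice, whose non-tumor tissue served as the control. Organoids, epithelium grown in culture without other tissue layers, gave 3 libraries of H2B/p53dIEC, 3 of H2BdIEC and 3 of controls. The organoid controls are titled as wild type, carry the genotype label H2B/p53flox/flox and are named H2Bfl/fl in the series description, so which floxed alleles they carry cannot be settled here. The labels give no age for tissue or organoids, and they do not say whether the organoid replicates came from different animals. The p-values for organoids therefore rest on variation from library to library, part or all of which may be technical. Pairs of libraries within a group were compared by chi-square per degree of freedom. It was 1.93 to 2.69 among H2B/p53dIEC organoids, 3.63 to 17.8 among H2BdIEC and 7.78 to 7.97 among control organoids. In crypts it was 21.3 to 209.7, and depth also differs between the sets. Whether organoid libraries of a genotype share a culture was not tested, so these p-values may not extend beyond the libraries at hand.

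The transcription factor p53 is held low by the ubiquitin ligase Mdm2 and accumulates when DNA is damaged, and it then binds response elements near its target genes. Cells without RNase H2 keep ribonucleotides in their DNA, a source of breaks and of p53 activity. The targets described here fall into groups by role. Cdkn1a encodes p21, the inhibitor of cyclin-dependent kinases through which p53 stops the cycle before DNA replication, Ccng1 encodes cyclin G1, which brings a phosphatase to Mdm2, and Btg2 encodes an antiproliferative protein that recruits a deadenylase to mRNA. Psrc1 encodes a microtubule-binding protein of the mitotic spindle, and Plk2 and Plk3 encode polo-like kinases of the stress response. Zmat3 encodes a zinc-finger protein that binds RNA and changes mRNA stability and splicing. Trp53cor1 is the gene of lincRNA-p21, a long noncoding RNA next to Cdkn1a. Pvt1 is the long noncoding RNA gene downstream of Myc, and in mouse cells p53 induces 1 of its isoforms.

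RefSeq promoter windows on GRCm38.p6 were matched by symbol for 6 of the 9 genes, in 8 windows, and were searched for the p53 consensus response element. This element is a pair of ten-base half-sites that reads the same on both strands, and it was searched over 20 bases with no spacer and at most 2 mismatches, with no search for other motifs. A match was found in 2 of the 8 windows, at the upstream start of Cdkn1a and at Ccng1, and each had 1 mismatch. Over all 32851 windows, 0.798% held a match with at most 2 mismatches and 0.088% held one with at most 1. The 250 bases upstream of 3 starts are printed because 2 of them hold the matches and because the starts of Cdkn1a differ in this. Capitals mark the match, in the direction of the gene.
Cdkn1a, upstream start, chr17:29090729-29090978, plus strand: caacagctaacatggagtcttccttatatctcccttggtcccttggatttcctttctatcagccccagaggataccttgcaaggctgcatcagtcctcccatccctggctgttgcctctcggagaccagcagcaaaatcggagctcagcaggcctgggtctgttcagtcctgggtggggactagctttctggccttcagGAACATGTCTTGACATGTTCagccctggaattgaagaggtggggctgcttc
Cdkn1a, downstream start, chr17:29093519-29093768, plus strand: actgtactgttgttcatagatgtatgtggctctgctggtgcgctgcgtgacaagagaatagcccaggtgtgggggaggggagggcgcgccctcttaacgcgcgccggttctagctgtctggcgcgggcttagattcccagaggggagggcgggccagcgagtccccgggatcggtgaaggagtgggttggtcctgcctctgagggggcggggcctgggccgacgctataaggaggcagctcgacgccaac
Ccng1, chr11:40755287-40755536, minus strand: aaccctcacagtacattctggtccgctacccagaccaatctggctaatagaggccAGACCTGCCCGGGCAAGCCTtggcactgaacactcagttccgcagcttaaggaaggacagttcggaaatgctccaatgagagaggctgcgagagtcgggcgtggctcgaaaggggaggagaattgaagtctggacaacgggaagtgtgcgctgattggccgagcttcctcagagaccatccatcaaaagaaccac
The Cdkn1a match lies from -51 to -32 of the upstream start, which is 2790 bp before the downstream start, and the Ccng1 match from -195 to -176 of its start. A window without a match says only that these letters are absent from it.

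Gene counts per library were 15545059 to 25913155 in crypts, 5774771 to 21386586 in organoids and 21884287 to 41504298 in tissue, except control 1320 with 401365. Levels are given as CPM, in which TMM factors, estimated within each set, correct for library size, and since the sets were scaled apart, a level in crypts and one in organoids are set side by side only as a description. Genotype labels were checked with the targeted genes. Rnaseh2b stood at 2.13 to 2.71 CPM in H2BdIEC crypts and 6.87 to 14.4 CPM in control crypts, and at 1.08 to 2.15 CPM in H2B/p53dIEC, 4.97 to 7.05 CPM in H2BdIEC and 14.8 to 18.3 CPM in control organoids. Trp53 stood at 9.96 to 11.7 CPM in H2B/p53dIEC organoids, 78.3 to 110.2 CPM in H2BdIEC and 98.3 to 115.3 CPM in control organoids. In tissue it stood at 12.6 to 29.9 CPM in H2B/p53dIEC tumors, 13.7 to 27.8 CPM in adjacent and 39.1 to 49.6 CPM in control tissue. Rnaseh2b stood at 2.53 to 6.20 CPM in tumors, 2.49 to 5.43 CPM in adjacent and 12.8 to 24.1 CPM in control tissue. In adjacent against control tissue Rnaseh2b was called lower and Trp53 was not, though its ranges did not overlap. All 3 H2BdIEC organoid libraries were male by Y-linked counts and the other 6 organoid libraries were female by Xist, so sex and the H2BdIEC genotype cannot be told apart in organoids. In tissue, the tumor and adjacent libraries of mouse 1349 were male and all others were female, the 4 controls included. Sex was not entered as a covariate in tissue. All samples are bulk RNA, in which fewer cells of a type and less RNA per cell cannot be told apart.

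**Figure D1:**
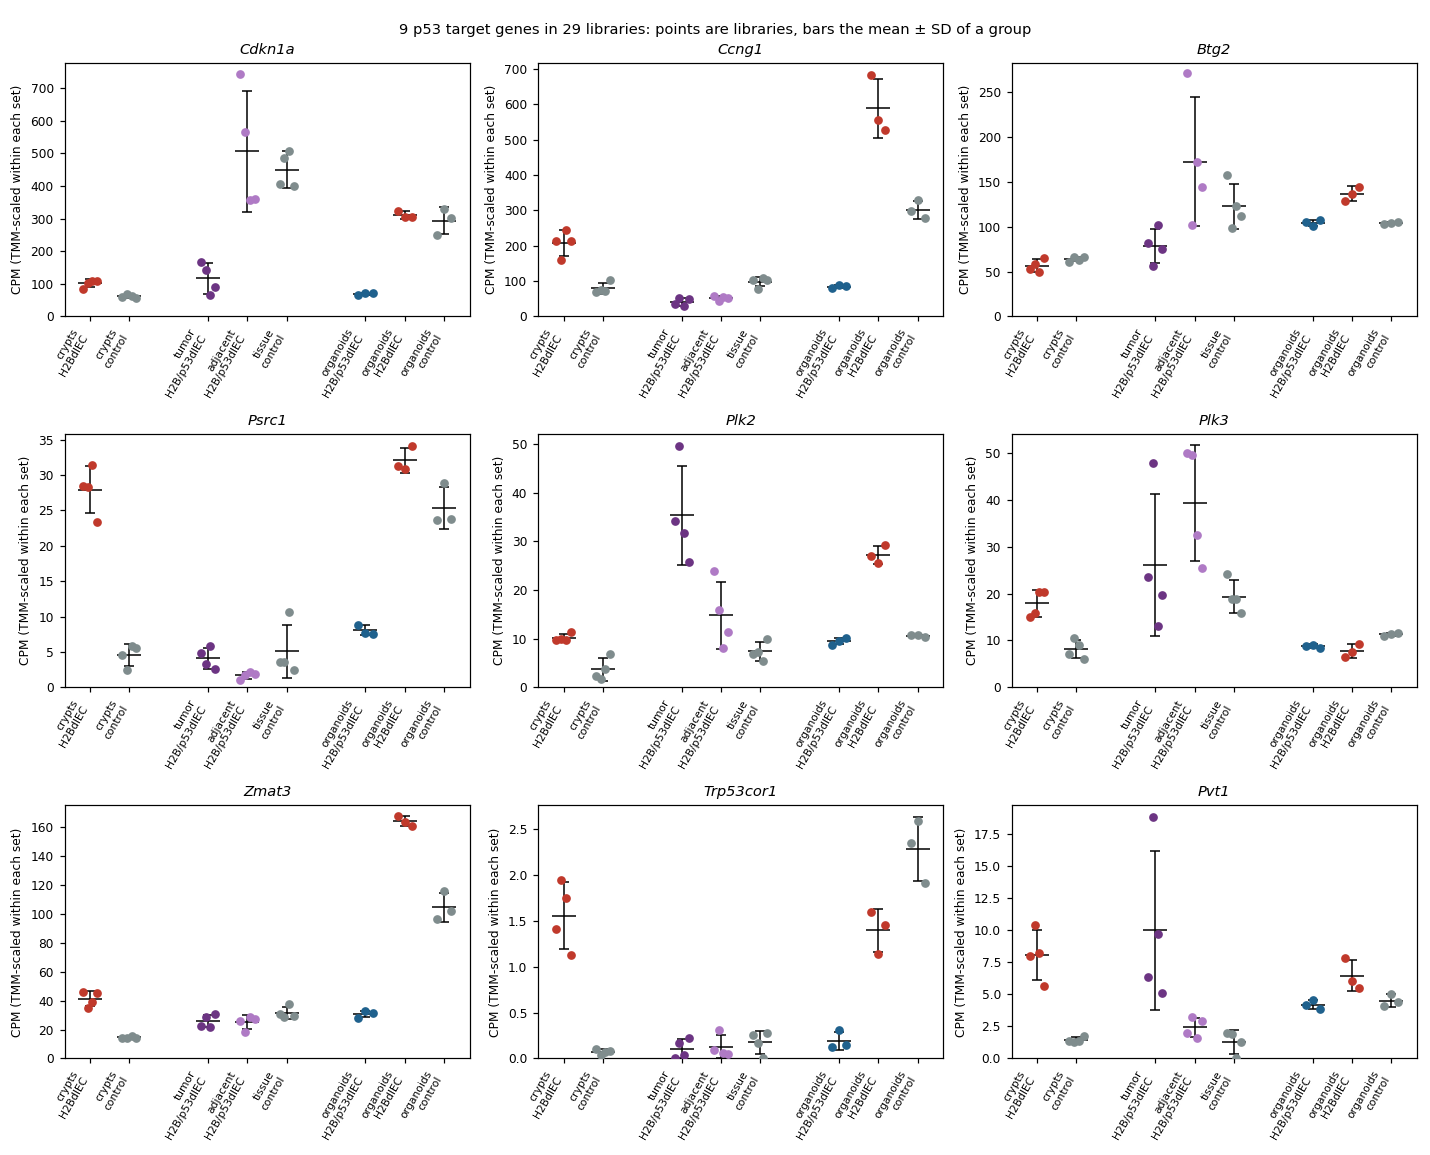
CPM of the 9 p53 target genes in every library (points), with the mean and SD of each group (bars), for crypts, tissue and organoids on a linear axis that starts at 0 in each panel. Ccng1 and Zmat3 are highest in the 3 H2BdIEC organoid libraries, at 527.6 to 684.1 and 160.6 to 167.4 CPM, and Trp53cor1 stays under 0.32 CPM in all 12 tissue libraries.

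Per kb of merged exon, Ccng1, Cdkn1a and Btg2 had the 3 highest mean levels of the 9 in 7 of the 8 groups. In adjacent tissue Plk3, at 15.5 ± 4.88 CPM per kb, stood beside Ccng1, at 14.8 ± 1.68 CPM per kb (SD, n = 4 each). Trp53cor1 had the lowest mean level in all 8 groups. In H2BdIEC crypts the mean level of Ccng1 was 59.2 ± 10.2 CPM per kb (SD, n = 4), against 22.7 ± 4.41 CPM per kb in control crypts (SD, n = 4). Btg2 led that order in control crypts at 23.33 ± 1.007 CPM per kb, and its range overlapped with that of Ccng1. Cdkn1a led in whole tissue, with 32.9 ± 13.2 CPM per kb in tumors, 142.6 ± 52.1 CPM per kb in adjacent tissue and 126.8 ± 15.7 CPM per kb in control tissue (SD, n = 4 each). Both long noncoding RNAs were scarce: Trp53cor1 averaged 0.417 ± 0.0973 CPM per kb in H2BdIEC crypts and 0.0201 ± 0.00775 CPM per kb in control crypts (SD, n = 4 each). Group means of a gene spanned 3.05-fold for Btg2 and 30.3-fold for Trp53cor1 over the 8 groups, with the other 7 genes between 5.09-fold for Plk3 and 18.7-fold for Psrc1.

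**Figure D2:**
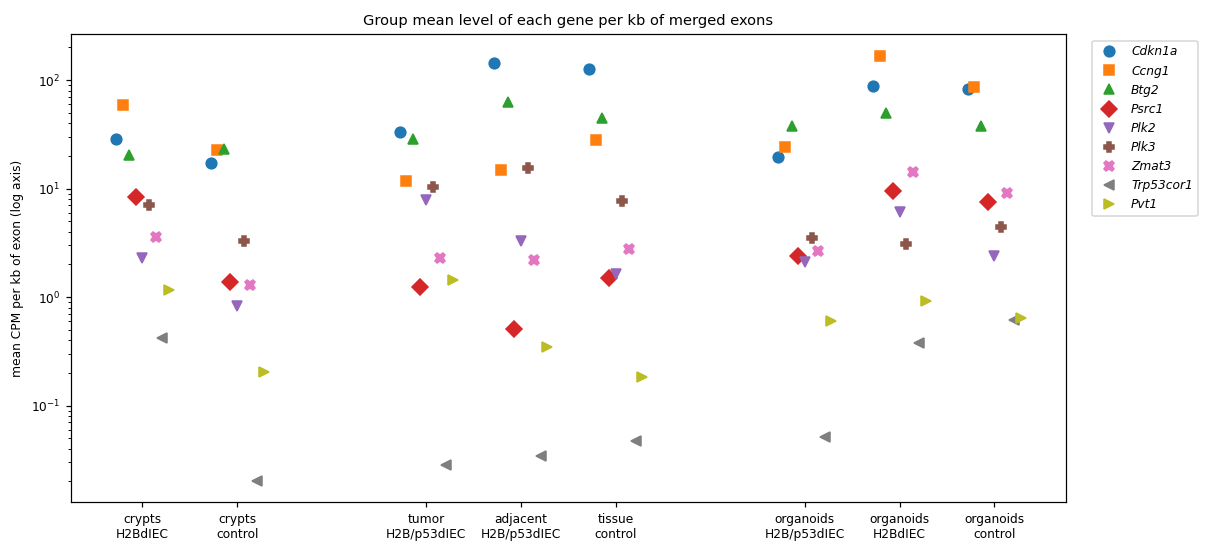
Group mean level of each gene in CPM per kb of merged exon on a log axis, for the 8 groups, with no error shown. Ccng1, Cdkn1a and Btg2 lie above the other 6 genes in 7 groups, Plk3 reaches the level of Ccng1 in adjacent tissue, and Trp53cor1 lies lowest in every group, at 0.417 in H2BdIEC crypts and 0.0201 in control crypts.

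In crypts of aged mice, 8 of the 9 genes rose in H2BdIEC against control libraries and none fell, with a median log2 fold change of 1.48 over the 9. All genes tested had a median of -0.01, and 5.16% of them rose, 4.87% fell and 10.0% changed in either direction. Trp53cor1, with 1 to 3 reads in each control, passed the filter on low counts only through the H2BdIEC libraries, so it had to differ, and without it 7 of 8 genes rose. The gains of those 7 ran from 0.74 on the log2 scale for Cdkn1a to 2.604 for Psrc1. Btg2 was the exception. Control 4, the only female control, stood apart from controls 1 to 3 over all genes. Chi-square per degree of freedom was 160.6 to 209.7 in its pairs and 21.3 to 64.7 among controls 1 to 3. Its ambiguous reads were 2.19%, against 0.377% to 0.457% in controls 1 to 3. Without control 4, 8 of the 9 genes were called higher.

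Among the arrest genes, Ccng1 stood at 213.5, 159.4, 245.3 and 213.1 CPM in the 4 H2BdIEC crypt libraries, against 68.6, 75.8, 72.0 and 102.6 CPM in the 4 controls. The lowest H2BdIEC library was thus above the highest control, and the log2 fold change was 1.38 ± 0.16 (SE, adjusted p = 0.0013). Adjusted p-values here and below come from edgeR with quasi-likelihood F tests, corrected by Benjamini-Hochberg over all genes tested, unless another tool is named. Cdkn1a had 84.8, 103.9, 109.9 and 109.7 CPM in H2BdIEC crypts, against 58.3, 68.2, 62.3 and 56.5 CPM in control crypts. Its rise, though small, was outside the spread of both groups, at log2 0.74 ± 0.11 (adjusted p = 0.0037). Btg2 had 52.8, 58.9, 49.0 and 65.2 CPM in H2BdIEC crypts and 60.6, 66.5, 62.9 and 66.0 CPM in control crypts. Those ranges overlapped and the log2 fold change of -0.18 ± 0.10 did not pass the test (adjusted p = 0.263).

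Psrc1, of the spindle, had 28.5, 28.3, 31.4 and 23.4 CPM in H2BdIEC crypts, against 4.56, 2.45, 5.80 and 5.57 CPM in controls. It rose by 2.604 ± 0.232 on the log2 scale (adjusted p = 0.00038), the largest change of the 7 protein-coding genes. Plk2 had 9.75, 10.04, 9.68 and 11.4 CPM in H2BdIEC crypts and 2.32, 1.76, 3.87 and 6.83 CPM in controls, where control 4 was highest. The groups did not overlap and the log2 fold change was 1.48 ± 0.36 (adjusted p = 0.032), but the call was lost when any 1 of 6 of the 8 libraries was left out (each H2BdIEC library, control 1 or control 3, adjusted p 0.053 to 0.093). Plk3 had 14.95, 15.9, 20.3 and 20.4 CPM in H2BdIEC crypts, against 7.19, 10.6, 8.99 and 6.16 CPM in controls. Its log2 fold change was 1.12 ± 0.18 (adjusted p = 0.0061). An 84 bp stretch of Plk3 exons overlaps Tctex1d4 on the opposite strand, and whether the counting used strand is not given in the sources used here.

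Zmat3, the RNA-binding protein gene, had the smallest p of the 9. It stood at 45.6, 35.2, 38.7 and 45.5 CPM in H2BdIEC crypts and at 14.3, 14.3, 15.5 and 14.4 CPM in control crypts, a log2 fold change of 1.49 ± 0.11 (adjusted p = 0.00013). Trp53cor1 was close to silent in control crypts: it had 26, 26, 27 and 19 reads in H2BdIEC libraries, against 3, 1, 2 and 2 reads in controls. Summed over a group and scaled by depth, 98 reads against 8 gave a ratio of 20.3 with an exact 95% interval of 9.92 to 48.4, which covers counting error only, and the fitted log2 fold change was 4.26 ± 0.39 (adjusted p = 0.00038). Pvt1 had 7.96, 10.4, 8.26 and 5.68 CPM in H2BdIEC crypts, against 1.40, 1.26, 1.33 and 1.76 CPM in controls. It rose by 2.49 ± 0.22 on the log2 scale (adjusted p = 0.00028), although 341 bp of its exons are shared with small RNA genes on the same strand and counting could split reads there.

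The other p53 targets in crypts were counted from lists without these 9 genes. Of 14 tested targets in cell death and at the membrane, 7 rose and 0 fell, with a median log2 fold change of 0.55. Eda2r, a receptor of the tumor necrosis factor family, stood at 13.6 CPM in H2BdIEC and 1.93 CPM in control crypts (log2 2.83 ± 0.24, adjusted p = 0.00023). Of 17 tested targets in metabolism, stress and repair, 5 rose and 0 fell, with a median of 0.34, among them Ephx1, an epoxide hydrolase gene, at 64.5 CPM in H2BdIEC and 10.8 CPM in control crypts (log2 2.59 ± 0.30, adjusted p = 0.0025). Of 8 tested regulators of p53, 1 rose, which was Mdm2, at 93.8 CPM in H2BdIEC and 58.4 CPM in control crypts (log2 0.68 ± 0.13, adjusted p = 0.0116).

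Of 30 genes of DNA replication and mitosis, 3 fell and 0 rose in the same crypts, where 4.87% of all genes fell. The list had a median log2 fold change of -0.29, with 2 of 30 values above 0 and 12 of 30 genes at an unadjusted p under 0.05. These were the cyclin genes Ccnb2 (25.0 CPM in H2BdIEC and 38.1 CPM in control crypts, log2 -0.61 ± 0.15, adjusted p = 0.0295) and Ccna2 (58.0 and 91.7 CPM in the same order, log2 -0.66 ± 0.17, adjusted p = 0.036), and E2f2, a transcription factor of replication genes (log2 -0.60 ± 0.16, adjusted p = 0.037, ranges overlapping). Among 18 tested genes of other inhibitors and cyclins, 4 fell and 0 rose, namely Cdkn1b, Cdkn2c and Cdkn2d, which encode inhibitors of cyclin-dependent kinases as Cdkn1a does, and Btg1, a relative of Btg2. Cdkn1b had 43.0 CPM in H2BdIEC and 56.2 CPM in control crypts (log2 -0.39 ± 0.08, adjusted p = 0.015), and Btg1 had 119.6 and 152.3 CPM in the same order (log2 -0.35 ± 0.09, adjusted p = 0.041).

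Summed markers of proximal small intestine and of acinar pancreas were higher in H2BdIEC crypts. The 10 proximal genes summed to 12896 to 15951 CPM in H2BdIEC and 5832 to 12813 CPM in control crypts, and 4 were called higher. The 8 acinar markers summed to 19.1 to 373.4 CPM in H2BdIEC crypts (median 22.2) and 4.45 to 8.0 CPM in control crypts. Of the 5 acinar markers tested, 0 were called, though all 5 had an unadjusted p under 0.05 without overlap of the groups (median log2 8.49). Among 11 tested immune, 5 fibroblast, 2 smooth muscle and 2 endothelial markers, 0 were called. Of 8 epithelial markers 1 was called lower, and of 2 tested enteric neuron and glia markers 1 was called higher. When the average of the proximal genes entered the fit as a covariate, 1 of the 9 genes was called, Trp53cor1, and 16 genes in all. The log2 fold changes of the 8 genes then ran from 0.77 for Cdkn1a to 5.43 for Trp53cor1, with Ccng1 at 0.83, so all kept their sign, and gut position cannot be told apart from genotype here. Of 5 stem cell markers of the crypt base, 3 fell and 0 rose (median log2 -0.94), and the part of cell composition was not tested. When the average of the immediate-early genes, which respond to tissue handling, entered instead, Cdkn1a (adjusted p = 0.064) and Plk3 (adjusted p = 0.081) lost their calls and Plk2 rose by 2.46.

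**Figure D3:**
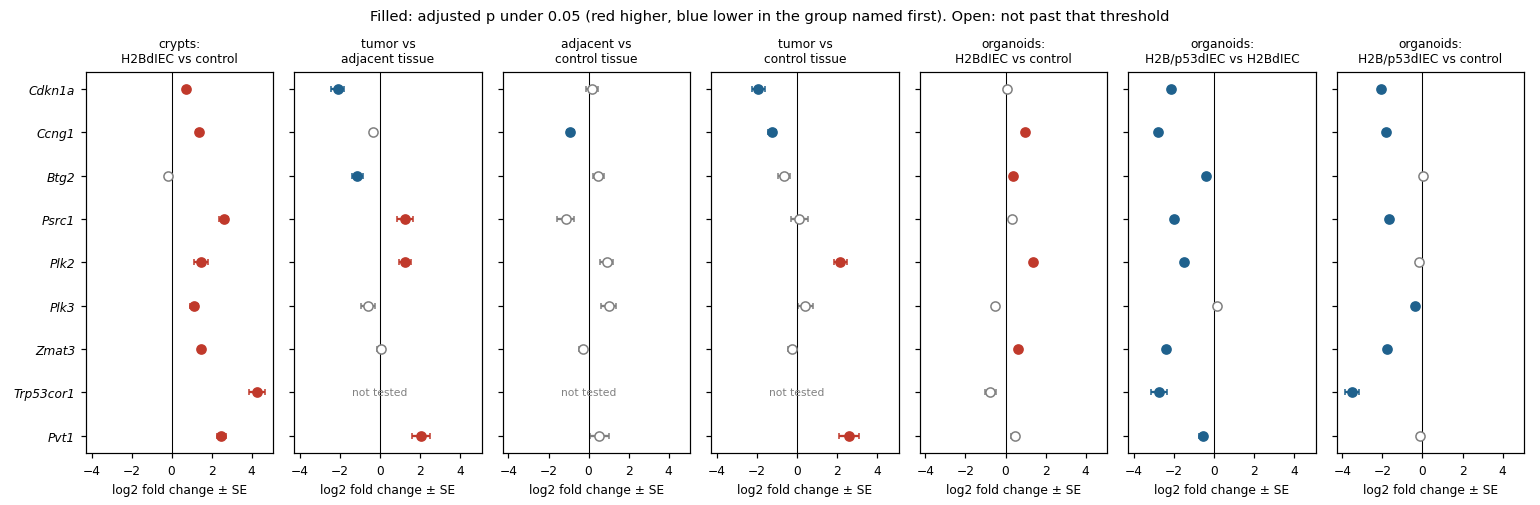
Log2 fold change ± SE of each gene in the 7 comparisons, positive where the group named first is higher, with filled points past an adjusted p of 0.05 and open points not. Crypts show 8 filled points to the right of 0, organoids of H2B/p53dIEC against H2BdIEC show 8 to the left, and tumors against adjacent tissue show 3 to the right and 2 to the left.

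In organoids, 4 of the 9 genes rose in H2BdIEC against control libraries and 0 fell, with a median log2 fold change of 0.40. Of all genes tested, 4.06% changed, 2.08% up and 1.97% down. Plk2 rose most, with 27.0, 25.5 and 29.3 CPM in H2BdIEC organoids against 10.7, 10.8 and 10.4 CPM in controls (log2 1.36 ± 0.10, adjusted p = 8.1e-06). Ccng1 had 684.1, 555.4 and 527.6 CPM in H2BdIEC organoids and 297.1, 328.5 and 278.6 CPM in controls (log2 0.96 ± 0.10, adjusted p = 0.00015). For both genes the 2 groups were clearly apart. Zmat3 had 167.4, 163.6 and 160.6 CPM in H2BdIEC organoids, against 96.3, 115.7 and 101.6 CPM in controls (log2 0.65 ± 0.08, adjusted p = 0.00068). Btg2 had 128.2, 137.0 and 144.8 CPM in H2BdIEC organoids and 102.9, 104.1 and 105.5 CPM in controls, a smaller but separate rise (log2 0.40 ± 0.07, adjusted p = 0.0053).

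The other 5 genes did not pass the test in H2BdIEC organoids. Cdkn1a had 324.5, 304.8 and 304.3 CPM in H2BdIEC organoids and 248.2, 328.9 and 303.0 CPM in controls, with overlapping ranges (log2 0.08 ± 0.09, adjusted p = 0.649). Psrc1 had log2 0.34 ± 0.10 (adjusted p = 0.095, and 0.039 without H2BdIEC A) and Pvt1 log2 0.46 ± 0.17 (adjusted p = 0.148). Plk3, at 6.39, 7.57 and 9.22 CPM in H2BdIEC organoids and 10.9, 11.4 and 11.5 CPM in controls, had log2 -0.50 ± 0.13 (adjusted p = 0.052), and was called lower by DESeq2 (adjusted p = 0.038) and without H2BdIEC C (adjusted p = 0.0255). Trp53cor1 had 9, 15 and 22 reads in H2BdIEC organoids and 39, 54 and 32 reads in controls (log2 -0.75 ± 0.26, adjusted p = 0.128). For both Plk3 and Trp53cor1 every H2BdIEC library lay below every control, without a call by edgeR. How many of all genes separate in this way was not counted.

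Among the other targets in H2BdIEC organoids, 4 of 14 in cell death and at the membrane rose and 0 fell (median log2 0.20), and 1 of 18 in metabolism, stress and repair rose and 2 fell (median -0.04). Eda2r had 35.2 CPM in H2BdIEC and 8.204 CPM in control organoids (log2 2.09 ± 0.13, adjusted p = 2.2e-06). Trp53inp1, a p53-induced gene of stress-induced cell death, had 89.8 and 34.7 CPM in the same order (log2 1.36 ± 0.12, adjusted p = 4.3e-05). Of 5 stem cell markers of the crypt base, 2 fell and 0 rose (median log2 -0.15), which were Olfm4 and Ascl2, and the part of cell composition was not tested. None of 30 cycle genes was called by edgeR, with 2 at an unadjusted p under 0.05 and a median of -0.02.

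In organoids lacking p53 as well, 8 of the 9 genes fell in H2B/p53dIEC against H2BdIEC libraries and 0 rose, with a median log2 fold change of -1.99. Of all genes tested, 15.4% fell, 13.9% rose and 29.3% changed. Rnaseh2b was called lower too, at 1.08 to 2.15 CPM in H2B/p53dIEC and 4.97 to 7.05 CPM in H2BdIEC organoids. Sex also differed between these genotypes, and neither can be told apart from the loss of p53 here. Ccng1 had 79.9, 87.9 and 85.1 CPM in H2B/p53dIEC organoids against 684.1, 555.4 and 527.6 CPM in H2BdIEC organoids (log2 -2.80 ± 0.11, adjusted p = 6.8e-09). Zmat3 had 28.3, 32.7 and 31.2 CPM in H2B/p53dIEC organoids, against 167.4, 163.6 and 160.6 CPM in H2BdIEC organoids (log2 -2.41 ± 0.09, adjusted p = 5.4e-09). Cdkn1a had 66.3, 72.4 and 70.4 CPM in H2B/p53dIEC organoids and 324.5, 304.8 and 304.3 CPM in H2BdIEC organoids (log2 -2.16 ± 0.10, adjusted p = 3.8e-08). The 2 genotypes did not overlap for any of these 3 genes. This comparison shares the H2BdIEC libraries with the one against controls, where Cdkn1a, Psrc1, Trp53cor1 and Pvt1, all lower here, had not been called.

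Psrc1 had 8.86, 7.76 and 7.57 CPM in H2B/p53dIEC organoids against 31.2, 30.9 and 34.1 CPM in H2BdIEC organoids (log2 -1.99 ± 0.12, adjusted p = 3.5e-07). Trp53cor1 fell to 2, 5 and 2 reads in H2B/p53dIEC organoids, against 9, 15 and 22 reads in H2BdIEC organoids (log2 -2.76 ± 0.41, adjusted p = 0.00043, summed ratio 0.143 with an exact 95% interval of 0.0617 to 0.297). Plk2 had 8.80, 9.61 and 10.2 CPM in H2B/p53dIEC organoids and 27.0, 25.5 and 29.3 CPM in H2BdIEC organoids (log2 -1.52 ± 0.10, adjusted p = 9.3e-07). Smaller falls were those of Btg2 (log2 -0.39 ± 0.07, adjusted p = 0.0011) and Pvt1 (log2 -0.56 ± 0.17, adjusted p = 0.026). The Pvt1 call was lost without any 1 of 5 of the 6 libraries, all but H2BdIEC C, with adjusted p from 0.0501 to 0.085. Plk3 had 8.86, 9.11 and 8.43 CPM in H2B/p53dIEC organoids, inside the range of H2BdIEC organoids (log2 0.15 ± 0.14, adjusted p = 0.448).

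Against control organoids, 6 of the 9 genes fell in H2B/p53dIEC organoids and 0 rose, where 16.6% of all genes fell and 33.3% changed. Cdkn1a (log2 -2.07 ± 0.10, adjusted p = 1.0e-07), Ccng1 (-1.84 ± 0.10, adjusted p = 1.75e-07), Zmat3 (-1.77 ± 0.09, adjusted p = 1.0e-07), Psrc1 (-1.66 ± 0.11, adjusted p = 8.8e-07) and Trp53cor1 (-3.51 ± 0.35, adjusted p = 1.6e-05) were all lower in every library than in any control. Plk3 was called lower as well (-0.36 ± 0.12, adjusted p = 0.042), but not with DESeq2 (adjusted p = 0.054), nor without any 1 of the 6 libraries (adjusted p 0.062 to 0.130). Plk2, Btg2 and Pvt1 did not pass the test. Plk2 had 8.80, 9.61 and 10.2 CPM in H2B/p53dIEC organoids and 10.7, 10.8 and 10.4 CPM in controls, all 3 below every control by a small margin (log2 -0.16 ± 0.11, adjusted p = 0.253). Btg2 had log2 0.01 ± 0.07 (adjusted p = 0.955) and Pvt1 had log2 -0.10 ± 0.17 (adjusted p = 0.674).

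Other targets fell alongside them in H2B/p53dIEC against H2BdIEC organoids: 10 of 14 in cell death and at the membrane, 11 of 18 in metabolism, stress and repair, and 6 of 8 tested regulators, with 1 riser in each of the first 2 lists and 0 in the last. Eda2r had 0.206 CPM in H2B/p53dIEC and 35.2 CPM in H2BdIEC organoids (log2 -7.43 ± 0.24, adjusted p = 1.9e-09), and Mdm2 had 41.8 and 74.0 CPM in the same order (log2 -0.81 ± 0.08, adjusted p = 3.2e-05). Over all genes tested in this comparison, 15.4% fell and 13.9% rose. Cycle genes went the other way from the targets. Of 30, 19 rose and 1 fell in H2B/p53dIEC against H2BdIEC organoids, with a median log2 fold change of 0.33. Mcm4, a subunit gene of the replicative helicase, had 152.0 CPM in H2B/p53dIEC and 109.2 CPM in H2BdIEC organoids (log2 0.47 ± 0.07, adjusted p = 0.0004). Of 5 stem cell markers of the crypt base, 4 rose in the same comparison, with Olfm4 at 879.7 CPM in H2B/p53dIEC and 292.1 CPM in H2BdIEC organoids (log2 1.59 ± 0.10, adjusted p = 6.4e-07), and the part of cell composition in the fall of the 9 genes was not tested.

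Whether the H2BdIEC effect differed between crypts and organoids was tested in 1 fit over 14 libraries as a difference of the log2 fold changes. For 6 of the 9 genes the effect was higher in crypts and for 1 it was lower, where 4.02% of all genes differed, 2.30% higher and 1.72% lower. Trp53cor1 differed most, by 5.01 ± 0.48 on the log2 scale (adjusted p = 3.9e-05), a value that rests on 1 to 3 reads in each control crypt library. It was followed by Psrc1 (2.28 ± 0.28, adjusted p = 0.00038), Pvt1 (2.02 ± 0.31, adjusted p = 0.0024) and Plk3 (1.65 ± 0.26, adjusted p = 0.0037). Zmat3 (0.87 ± 0.14, adjusted p = 0.0043) and Cdkn1a (0.67 ± 0.17, adjusted p = 0.032) differed less. Btg2 was the gene with a lower effect in crypts than in organoids (-0.56 ± 0.14, adjusted p = 0.036). The calls of Cdkn1a and Btg2 were each lost without any 1 of several libraries: 10 of 14 for Cdkn1a (all but crypt control 2, H2BdIEC crypts 1 and 2 and organoid control A, adjusted p up to 0.118) and 9 of 14 for Btg2 (crypt controls 1, 3 and 4, H2BdIEC crypt 3, H2BdIEC organoids B and C and all 3 organoid controls, adjusted p up to 0.104). For Plk2 the effects were 1.48 ± 0.36 in crypts and 1.36 ± 0.10 in organoids, a difference of 0.14 ± 0.42 that did not pass the test (adjusted p = 0.963), and for Ccng1 the difference was 0.44 ± 0.22 (adjusted p = 0.278). Crypts and organoids also differ in sex balance and culture, and these cannot be told apart from the difference in effect.

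**Figure D4:**
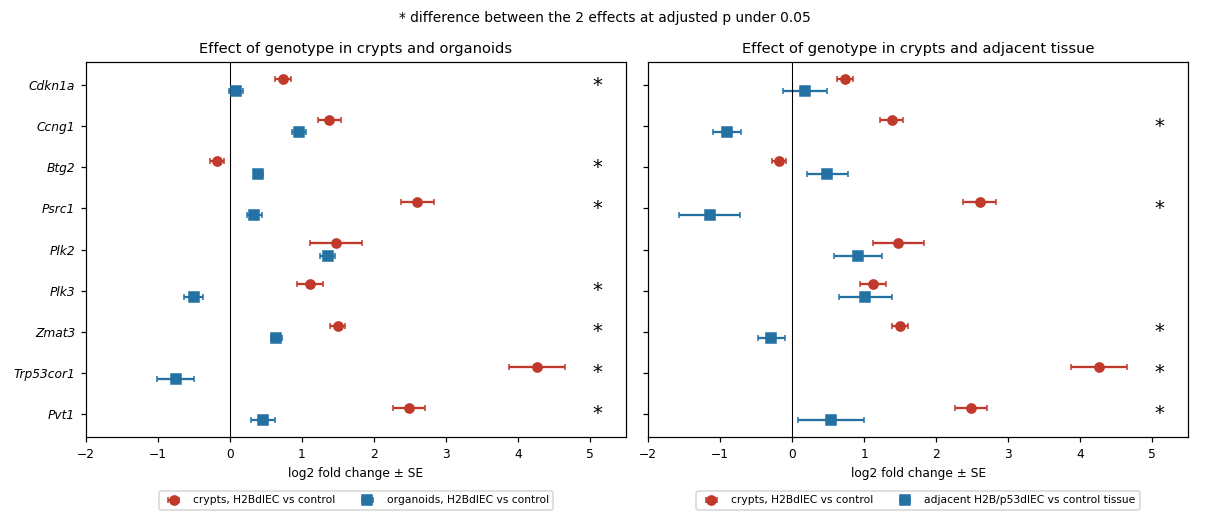
Log2 fold change ± SE of each gene in crypts (H2BdIEC against control, circles) beside organoids (H2BdIEC against control, squares, left panel) and adjacent tissue (H2B/p53dIEC against control, squares, right panel), each from its own fit, with a star where the test of the difference in a joint fit had an adjusted p under 0.05. Stars mark 7 genes in the left panel and 5 in the right, and Plk2 has none in either.

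In tumors, 3 of 8 tested genes were higher and 2 lower than in adjacent tissue of the same mice. This fit did not pair the samples of a mouse, and neither did the p-values below unless stated. With mouse as a replicate block, 2 were higher and 2 lower. Trp53cor1 did not pass the filter on low counts in tissue, with 0 to 7 reads in tumors, 1 to 6 in adjacent and 0 to 10 in control libraries. Tumors differed from adjacent tissue in 46.9% of all genes tested, with 23.0% higher and 24.0% lower. A call is thus common here, and these counts say little about the 8 genes as a group. The median log2 fold change was -0.15 over the 8 genes.

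Cdkn1a was lower in the tumor of all 4 mice. It had 168.3, 143.2, 66.3 and 90.3 CPM in the tumors of mice 1349, 1323, 1322 and 1319, against 742.8, 566.2, 356.6 and 361.6 CPM in their adjacent tissue. The tumor held 0.186 to 0.253 of the level in adjacent tissue of the same mouse, and the log2 fold change was -2.11 ± 0.32 (adjusted p = 0.00025). Btg2 had 81.5, 56.0, 101.5 and 74.8 CPM in the tumors and 271.5, 101.9, 172.0 and 144.1 CPM in adjacent tissue, in the same order of mice. It was lower in 4 of 4 mice (log2 -1.14 ± 0.28, adjusted p = 0.0055). Ccng1, also of the arrest group, had 35.0, 52.1, 29.7 and 48.1 CPM in the tumors and 58.7, 44.5, 53.8 and 51.3 CPM in adjacent tissue, lower in 3 of 4 mice (log2 -0.34 ± 0.19, adjusted p = 0.155, and 0.043 without both libraries of mouse 1323).

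Plk2 and Pvt1 were higher in the tumor of all 4 mice. Plk2 had 34.3, 49.6, 31.7 and 25.7 CPM in the tumors of mice 1349, 1323, 1322 and 1319, against 23.8, 15.9, 8.09 and 11.3 CPM in their adjacent tissue (log2 1.26 ± 0.31, adjusted p = 0.0059). Pvt1 had 6.32, 18.8, 9.73 and 5.11 CPM in the tumors and 1.98, 3.20, 1.60 and 2.90 CPM in adjacent tissue (log2 2.05 ± 0.44, adjusted p = 0.0025). The tumor of mouse 1323 was the highest for both genes. Psrc1 had 4.83, 3.33, 5.79 and 2.56 CPM in the tumors, against 1.08, 1.73, 2.15 and 1.89 CPM in adjacent tissue (log2 1.26 ± 0.40, adjusted p = 0.021). With mouse as a replicate block Psrc1 had log2 1.21 and was not called (adjusted p = 0.056), and it was also lost without adjacent 1349 (adjusted p = 0.056) or tumor 1322 (adjusted p = 0.055). Plk3 had 23.6, 47.7, 13.1 and 19.6 CPM in the tumors and 49.9, 49.5, 32.4 and 25.4 CPM in adjacent tissue, lower in 4 of 4 mice by ratios of 0.404 to 0.964. It did not pass the test (log2 -0.60 ± 0.35, adjusted p = 0.18), and without tumor 1323 it did (log2 -1.06, adjusted p = 0.0096). Zmat3 stood at 21.9 to 30.7 CPM in tumors and 18.3 to 28.7 CPM in adjacent tissue (log2 0.05 ± 0.18, adjusted p = 0.856).

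**Figure D5:**
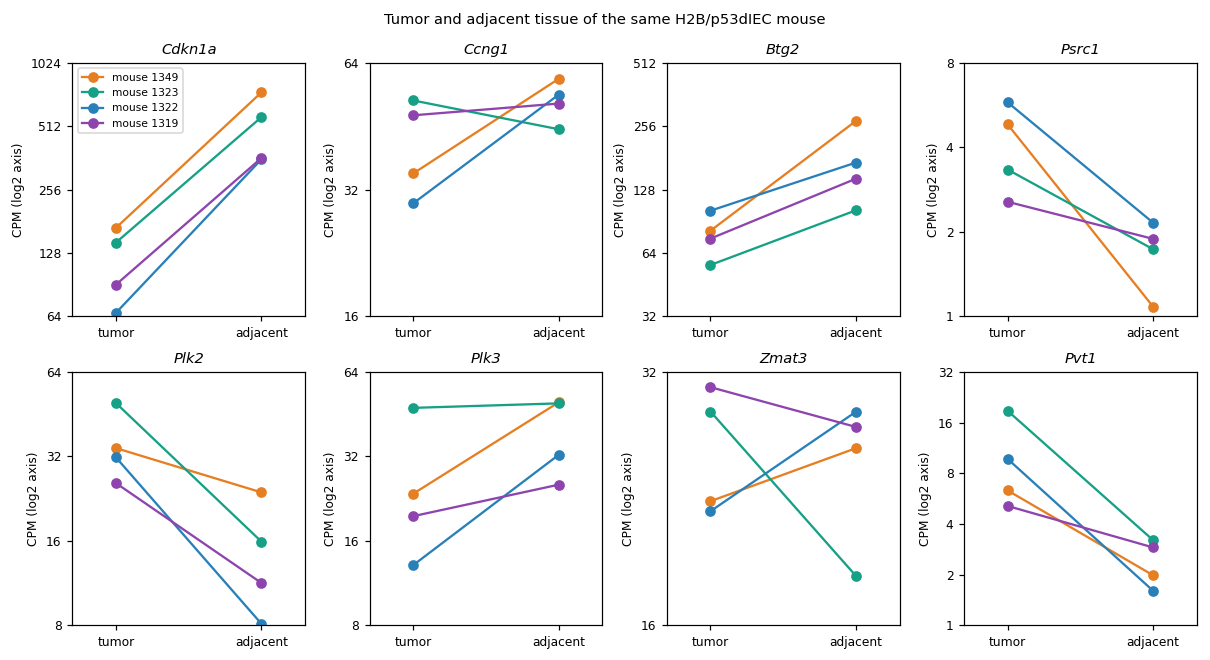
CPM of 8 genes in the tumor and in adjacent tissue of each H2B/p53dIEC mouse on a log2 axis, with a line joining the 2 samples of 1 mouse. Cdkn1a, Btg2 and Plk3 are lower in the tumor of 4 of 4 mice, Psrc1, Plk2 and Pvt1 are higher in 4 of 4, and Ccng1 and Zmat3 differ in direction between mice.

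Tissue makeup differed between tumors and adjacent tissue. The summed level of 6 smooth muscle markers was 282.0 to 809.4 CPM in tumors and 2826 to 4223 CPM in adjacent tissue, that of 6 fibroblast markers was 1285 to 10567 CPM in tumors and 241 to 855 CPM in adjacent tissue, and 7 of 8 epithelial markers were lower in tumors. The part of these shifts in the changes of the 8 genes was not tested. Of 30 cycle genes, 20 were higher and 0 lower in tumors, with E2f1, a transcription factor of replication genes, at 13.6 to 26.8 CPM in tumors and 3.25 to 10.2 CPM in adjacent tissue (log2 1.62 ± 0.32, adjusted p = 0.0016). Other p53 targets were called in both directions, where 23.0% of all genes were higher and 24.0% lower. Of 14 in cell death and at the membrane, 4 were higher and 4 lower, and of 18 in metabolism, stress and repair, 5 were higher and 6 lower. Bax, which encodes an effector of apoptosis, had 51.7 CPM in tumors and 28.2 CPM in adjacent tissue (log2 0.87 ± 0.16, adjusted p = 0.00086), while Sesn1, a stress-induced regulator of growth signalling, had 18.9 and 92.6 CPM in the same order (log2 -2.29 ± 0.29, adjusted p = 8.6e-05). Cdkn2a, the gene of the p16 and p19 tumor suppressors, had 57.9 CPM in tumors and 0.522 CPM in adjacent tissue (log2 6.79 ± 0.68, adjusted p = 2.7e-05).

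Against control tissue, tumors were higher in 2 and lower in 2 of 8 tested genes, in a comparison that called 54.6% of all genes, 28.6% higher and 26.1% lower. Plk2 averaged 35.3 ± 10.2 CPM in tumors and 7.38 ± 1.87 CPM in control tissue (SD, n = 4 each; log2 2.17 ± 0.34, adjusted p = 0.00022). Pvt1 averaged 9.998 ± 6.198 CPM in tumors and 1.29 ± 0.917 CPM in control tissue (log2 2.59 ± 0.48, adjusted p = 0.00069), where control 1320 had 0 Pvt1 reads at its low depth. Cdkn1a averaged 117.0 ± 46.9 CPM in tumors and 450.4 ± 55.6 CPM in control tissue (log2 -1.94 ± 0.32, adjusted p = 0.00029), and Ccng1 averaged 41.2 ± 10.6 and 98.1 ± 13.6 CPM in the same order (log2 -1.24 ± 0.19, adjusted p = 0.0002). The comparison shares its tumor libraries with the one against adjacent tissue. Tissue makeup differed here too. All 6 smooth muscle markers and all 8 epithelial markers were called lower in tumors, 5 of 6 fibroblast and 4 of 5 endothelial markers were called higher, and of 10 proximal genes 7 were called higher and 1 lower, with a median log2 of 5.46. The part of these shifts in the values of the 8 genes was not tested. Btg2 had log2 -0.65 ± 0.28 (adjusted p = 0.067) and was called when only these groups were fitted (adjusted p = 0.022) or without tumor 1322 (adjusted p = 0.041).

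Adjacent H2B/p53dIEC tissue differed from control tissue in 1.07% of genes, 0.792% higher and 0.277% lower, and in 1 of the 8 genes tested. That gene was Ccng1, at 58.7, 44.5, 53.8 and 51.3 CPM in adjacent tissue of mice 1349, 1323, 1322 and 1319 and 102.1, 78.4, 109.7 and 102.3 CPM in controls 1315, 1316, 1320 and 1321. The groups did not overlap (log2 -0.90 ± 0.19, adjusted p = 0.046), but the call was lost when any 1 of the 8 libraries was left out (adjusted p 0.065 to 0.173). Cdkn1a averaged 506.8 ± 185.2 CPM in adjacent tissue and 450.4 ± 55.6 CPM in controls (SD, n = 4 each). Its log2 fold change was 0.17 ± 0.31 (adjusted p = 0.82), and mouse 1349, the only male in tissue, was highest. Plk3 (log2 1.01 ± 0.37, adjusted p = 0.186) was higher in every adjacent library than in any control, with no call. Psrc1 (-1.15 ± 0.43, adjusted p = 0.193) was lower in every one, also with no call. Zmat3 (-0.29 ± 0.19, adjusted p = 0.449) was not called, and its ranges nearly met, at 18.3 to 28.71 CPM in adjacent and 28.73 to 37.5 CPM in control tissue. How many of all genes separate in this way was not counted. The Psrc1 level of 10.7 CPM in control 1320 rests on 4 reads. The summed proximal list was 632 to 44659 CPM in adjacent tissue and 259.5 to 355.9 CPM in control tissue, and its part in these values was not tested.

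The genotype effect of H2BdIEC in crypts was higher than that of H2B/p53dIEC in adjacent tissue for 5 of the 9 genes and lower for 0, in a joint fit of 16 libraries that called 5.37% of genes, 2.42% higher and 2.94% lower. The differences on the log2 scale were 3.56 ± 0.42 for Psrc1 (adjusted p = 0.00036), 2.24 ± 0.21 for Ccng1 (adjusted p = 6.2e-05), 1.92 ± 0.42 for Pvt1 (adjusted p = 0.017) and 1.72 ± 0.20 for Zmat3 (adjusted p = 0.00032). The fifth was Trp53cor1 (5.20 ± 0.72, adjusted p = 0.0012), which entered this fit only through its 19 to 27 reads in H2BdIEC crypts, had failed the filter in tissue and was given no adjusted p by DESeq2, so its value is a description. Cdkn1a (0.51 ± 0.28, adjusted p = 0.296), Btg2 (-0.71 ± 0.31, adjusted p = 0.193), Plk2 (0.54 ± 0.51, adjusted p = 0.583) and Plk3 (0.06 ± 0.32, adjusted p = 0.969) were not called. The samples differ in tissue layers as well as in the p53 allele, which cannot be told apart here. They differ in other ways too. The summed proximal list was 632 to 44659 CPM in adjacent and 259.5 to 355.9 CPM in control tissue. Of 4 libraries each, 1 was male in adjacent and 0 in control tissue, against 2 in H2BdIEC and 3 in control crypts. No age is given for tissue. The part of these in the differences was not tested.

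Neighbours on the chromosome were compared with 2 of the genes. Trp53cor1 starts 11797 bp from the start of Cdkn1a on the opposite strand (chr17:29057430-29079179 for Trp53cor1 and chr17:29090976-29100727 for Cdkn1a, GENCODE on GRCm38). Of 9 tested genes within 250000 bp of the Cdkn1a start in crypts, 1 was called, where 10.0% of all genes were called. That gene was Trp53cor1, which passed the filter only through the H2BdIEC libraries and so had to differ. The other 8 were not called. Srsf3, a splicing factor gene 58348 bp away, had 127.2 CPM in H2BdIEC and 149.6 CPM in control crypts (log2 -0.23 ± 0.11, adjusted p = 0.178). In H2B/p53dIEC against H2BdIEC organoids 3 of 10 tested neighbours fell, Trp53cor1 included, and 1 rose, where 15.4% of all genes fell and 13.9% rose. Myc starts 52595 bp upstream of Pvt1 (chr15:62037986-62378096) on the same strand. In crypts Myc had 35.8, 28.5, 26.9 and 24.4 CPM in H2BdIEC and 28.7, 20.4, 29.5 and 33.3 CPM in control libraries while Pvt1 rose (log2 for Myc 0.05 ± 0.16, adjusted p = 0.878). In tumors both were higher than in adjacent tissue, Myc with 50.7, 88.3, 65.1 and 49.5 CPM in the tumors and 26.9, 13.2, 21.6 and 12.7 CPM in adjacent tissue of mice 1349, 1323, 1322 and 1319 (log2 1.77 ± 0.38, adjusted p = 0.0028). In H2B/p53dIEC against H2BdIEC organoids Myc had log2 0.16 ± 0.11 (adjusted p = 0.292), where Pvt1 fell.

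The other tested polo-like kinase genes, Plk1, Plk4 and Plk5, did not pass the test in crypts, where Plk2 and Plk3 rose. Plk1, of mitosis, had 19.5 CPM in H2BdIEC and 23.5 CPM in control crypts (log2 -0.26 ± 0.16, adjusted p = 0.311), and Plk4, of centriole duplication, had log2 -0.23 ± 0.11 (adjusted p = 0.211). Plk5 had log2 1.09 ± 0.32 (adjusted p = 0.056) at 1.73 CPM in H2BdIEC and 0.81 CPM in control crypts. In H2B/p53dIEC against H2BdIEC organoids Plk4 rose (log2 0.31 ± 0.07, adjusted p = 0.009), Plk1 had log2 0.32 ± 0.12 (adjusted p = 0.071), and Plk2 fell. In tumors against adjacent tissue Plk1 was higher (log2 1.33 ± 0.36, adjusted p = 0.0088).

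After each set was centred on its own mean, the genes fell into patterns over the 29 libraries, given here as Pearson r and as a description, since the libraries of a group share a genotype and the libraries of a set share tissue and scaling. Ccng1 and Zmat3 were most alike (r = 0.93), then Psrc1 and Zmat3 (r = 0.79), Plk2 and Pvt1 (r = 0.77) and Ccng1 and Cdkn1a (r = 0.75). Btg2 and Pvt1 ran against each other (r = -0.41). Among 12213 genes, Inka2 was most like Ccng1 (r = 0.96) and Zmat3 (r = 0.94), and the p53 target Phlda3 was most like Psrc1 (r = 0.90). Map2k1, a kinase gene of the MAPK cascade, was most like Cdkn1a (r = 0.91), Dennd2c most like Pvt1 (r = 0.94), Itpripl1 most like Plk2 (r = 0.87), Epas1 most like Plk3 (r = 0.85) and Fam102a most like Btg2 (r = 0.84). Trp53cor1 was left out, since it did not pass the filter in tissue. Over the 9 organoid libraries alone, the 3 genes most like Plk2 included the Y-linked Eif2s3y (r = 0.98) and Kdm5d (r = 0.98), so that sex moved with Plk2 there. In crypts, where H2BdIEC held 2 female and 2 male libraries and controls 1 female and 3 male, 8 of the 9 genes were called with sex as a covariate too.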

How the data were processed

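The authors deposited counts of reads per gene for each library, with no normalization. The submitters' processing notes name Trimmomatic 0.36, cutadapt 1.5 and 1.9, TopHat2 2.0.14, HTSeq and GRCm38. Per the labels' protocols the libraries were made with a stranded mRNA kit, and the strand setting used in counting is not given in the sources used here. Ensembl identifiers were matched to GENCODE M21 for 47310 of 47729 genes in crypts, 49326 of 49585 in tissue and 52403 of 52550 in organoids.

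Each set was fitted alone in edgeR 4.0.16 (R 4.3.3, limma 3.58.1) with filterByExpr, TMM scaling, robust dispersions, 1 coefficient per group and quasi-likelihood F tests, Benjamini-Hochberg adjusted over all genes tested and called under 0.05. The 2 joint fits tested differences between effects. The code was tested on simulated data. Alternatives were DESeq2 1.42.0, other scalings and filters, covariates, replicate blocks and leaving out each library. Summaries and figures used Python 3.11.15, pandas 2.3.3, scipy 1.17.1 and matplotlib 3.10.9. RefSeq promoters were from GRCm38.p6.

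The genes and lists were chosen with earlier results of these data known. Named beside them were, for each list, up to 4 genes with the smallest p, Rnaseh2b and Trp53 as checks, Myc, other polo-like kinase genes and the most similar genes. Olfm4, Ascl2 and Srsf3 were named after their values were seen. Tumor and adjacent libraries with the same number came from the same mouse, and their deviations correlated at -0.16 to 0.16.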

Additional observations from a re-analysis of the deposited data

Results flagged for a closer look

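Each of the 9 genes was checked in each group of 4 libraries, 45 tests on shared libraries. Of these, 3 flagged a library far from the others of its group, where chance alone flags about 1 in 20 tests. Psrc1 stood at 10.7 CPM in tissue control 1320, the library of lowest depth, from 4 reads, against 2.47 to 3.63 CPM in the other 3 controls. Zmat3 stood at 15.51 CPM in crypt control 3. Trp53cor1 stood at 0.3147 CPM, or 6 reads, in adjacent tissue of mouse 1323.

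The effect of genotype differed between sample types, by the test of the difference itself. The H2BdIEC effect in crypts minus that in organoids was 0.6696 on the log2 scale for Cdkn1a, -0.5562 for Btg2, 2.285 for Psrc1, 1.65 for Plk3, 0.8667 for Zmat3, 5.012 for Trp53cor1 and 2.017 for Pvt1. The H2BdIEC effect in crypts minus the H2B/p53dIEC effect in adjacent tissue was 2.237 for Ccng1, 3.563 for Psrc1, 1.723 for Zmat3, 5.198 for Trp53cor1 and 1.925 for Pvt1. The value of Trp53cor1 against adjacent tissue is a description, since it entered that fit only through the H2BdIEC crypts. Its value in crypts minus organoids rests on 1 to 3 reads in each control crypt library.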

How the results depend on the processing

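Of the alternative values for single genes, 1189 kept their direction and side of the threshold, 63 lost a call, 9 gained one and 21 changed sign. In crypts 8 of 9 genes were called, and 1 with the proximal covariate. In adjacent against control tissue 1 of 8 was called, and 0 without control 1320 and adjacent 1323, with 0 to 0 when single libraries were left out. Sign changes were all in values that were not called. Leaving out single libraries gave -0.0863 to 0.122 for Zmat3 in tumors against adjacent tissue (-0.130 without both libraries of mouse 1323), -0.0753 to 0.306 for Cdkn1a in adjacent against control tissue, and, in tumors against control tissue, -0.148 to 0.347 for Psrc1 and -0.0529 to 0.638 for Plk3 (-0.0616 without control 1320 and tumor 1323). It gave -0.0270 to 0.173 for Cdkn1a in H2BdIEC against control organoids, -0.0132 to 0.0314 for Btg2 in H2B/p53dIEC against control organoids (-0.0080 without the low-count filter), -0.0886 to 0.610 for Plk2 in crypts minus organoids and -0.127 to 0.215 for Plk3 in crypts minus adjacent tissue. The cause was not tested.

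With mouse as a replicate block, 4 of 8 genes were called in tumors against adjacent tissue, against 5 without it, and Psrc1 was the call lost. Organoid libraries of the same letter had correlated deviations of -0.178 to 0.102. Tumor and adjacent libraries known to share a mouse gave -0.16 to 0.16, so this measure cannot tell whether the letters pair. With letter as a replicate block 3 of 9 genes were called in H2BdIEC against control organoids, against 4, with Btg2 lost (adjusted p = 0.0711).

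Over all genes, calls in crypts numbered 1464, 2426 with DESeq2, 16 with the proximal and 158 with the immediate-early covariate, and 481 to 1839 without single libraries. In adjacent against control tissue they numbered 189, 929 with DESeq2, 441 with only these groups fitted and 0 to 223 without single libraries. In H2BdIEC against control organoids they numbered 637, 1494 without the filter, 242 with only these groups, 167 with the letter block and 286 to 1185 without single libraries. In H2B/p53dIEC against H2BdIEC organoids the count of 4601 ran from 2982 to 5483 without single libraries. The count of genes whose effect differed was 690 for crypts minus organoids (1339 with DESeq2, 218 to 1053 without single libraries) and 950 for crypts minus adjacent tissue (1529 with DESeq2, 383 to 1129 without single libraries). Depth limits Trp53cor1 most, which had 0 to 10 reads in tissue and there entered the test only without the filter.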
